A study of Drosophila melanogaster with 3 samples.

Results

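The genes described here encode the nuclear-encoded subunits of the mitochondrial respiratory chain and ATP synthase, measured by RNA sequencing of wing imaginal discs of Drosophila melanogaster, larval epithelia from which the adult wing and part of the thorax arise. Members were chosen by name: protein-coding genes of the deposited table whose symbol starts with ND- (complex I), SdhA to SdhD (complex II), UQCR (complex III), COX and a digit (complex IV) or ATPsyn (complex V, the ATP synthase). The rule found 80 genes among 17611 in the table, of which 13950 are protein-coding. Of the 80, 18 are paralogs whose symbol ends in an added L, and 62 are standard subunits. For 16 of the paralogs the standard subunit is also a member, and for COX6AL and ATPsynepsilonL it is listed under another name (levy and sun). No assembly factor carries such a symbol in the table. The study has 3 libraries of 1 group, larvae of the labelled genotype w;apGAL4/+, which carry 1 copy of a GAL4 driver placed in the apterous gene, and there is no second condition. A genotype field calls the samples wild type, although each carries the white background and the driver by its label. Per the labels' protocols, larvae grew at 25 °C to the wandering stage of the third instar, about 5 days after egg laying, and each sample pooled the RNA of 100 to 120 discs. Whether the samples came from separate cultures is not given, so the spread between them may be technical.

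The respiratory chain passes electrons from NADH (complex I) and succinate (complex II) through ubiquinone, complex III, cytochrome c and complex IV to oxygen, and the proton gradient built by complexes I, III and IV drives ATP synthesis by complex V. Complex II is made of nuclear-encoded subunits only, while the other complexes combine nuclear-encoded subunits with some made from the mitochondrial genome. In Drosophila many subunits have a second gene copy used mainly in the testis, where sperm mitochondria are remodelled.

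Values are FPKM, fragments per kilobase of exon scaled to sequencing depth, as the authors deposited them, and "±" gives the SD over the 3 libraries. The libraries held 25047773 to 26454949 reads recovered from the FPKM values, and the 80 genes took 0.768% to 0.798% of them. All 8 wing disc markers were at 13.97 FPKM or more on average, among them ap and vg. The libraries differ in markers of other tissues, and these are given beside the results they move with. Since the discs were pooled, fewer cells of a type and less RNA per cell cannot be told apart.

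The paralogs averaged below 1 FPKM with the single exception of ATPsynepsilonL, and nearly all standard subunits were far above that level. Of the 80 genes, 61 reached 1 FPKM in each of the 3 libraries (1 of 18 paralogs and 60 of 62 standard subunits), against 42.9% of all genes of the table and 51.9% of the protein-coding ones. A limma test of log2(FPKM + 0.1) against 1 FPKM, with Benjamini-Hochberg adjustment over 13909 genes, called the same number, 61 of 79 members tested, against 53.4% of the genes tested. No standard subunit lay near that level: the lowest one above it, ND-B14.5A, averaged 22.6 FPKM, and all 60 exceeded 20 FPKM throughout. The median of the 62 standard subunits was 66.4 FPKM, and that of the 7954 genes of the table with a mean of at least 1 FPKM was 19.3 FPKM.

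Median levels were ordered by complex, from ATP synthase at the top to complex I at the bottom. The median over the standard subunits of complex V was 205, 209 and 196 FPKM in libraries 1, 2 and 3. For complex IV it was 124, 130.0 and 122 FPKM, and for complex III 73.6, 75.5 and 69.9 FPKM. For complex II it was 65.3, 66.0 and 65.0 FPKM, and for complex I 53.4, 56.0 and 52.7 FPKM. The medians of no complex overlapped those of another, though levels of single subunits did. ATPsyndelta of complex V averaged 36.3 FPKM and ND-MLRQ of complex I 215 FPKM. The log2 ratio of the medians was 0.70 ± 0.02 for complex V over IV, 0.78 ± 0.02 for IV over III, 0.16 ± 0.05 for III over II and 0.28 ± 0.03 for II over I. Complex V exceeded complex I by 1.91 ± 0.02, or 3.77-fold. Each of the 10 ratios had the same sign in 3 of 3 libraries, with an exact sign-flip permutation p of 0.25 (two-sided; 0.25 also after adjustment over the 10), below which 3 libraries cannot go. The order of complexes III and II rests on which subunits the name rule finds: with the 3 complex III subunits of other names added (Cyt-c1, RFeSP and ox), the log2 ratio of III over II was -0.0076.

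**Figure D1:**
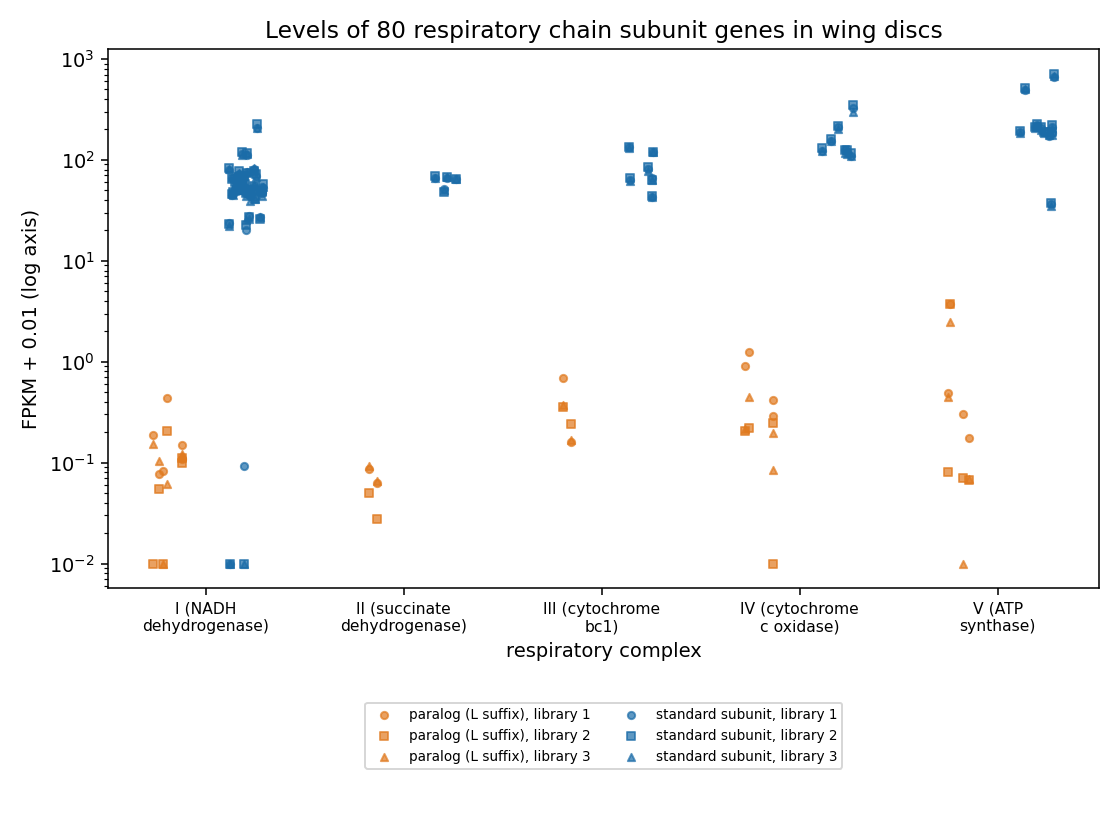
FPKM + 0.01 (log axis) of the 80 genes by respiratory complex, with paralogs to the left in orange and standard subunits to the right in blue, and each gene drawn as 3 points, 1 for each library. Paralogs lie at or below 3.75 FPKM, and standard subunits lie between 20.2 and 709.6 FPKM apart from 2 complex I genes at the bottom.

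At the level of 100 FPKM, 22 members were at or above it in every library, all of them standard subunits, against 3.95% of all genes and 4.94% of protein-coding genes. They were 10 of 11 in complex V, 7 of 7 in complex IV, 2 of 6 in complex III, none of 4 in complex II and 3 of 34 in complex I. The limma test against 100 FPKM called 15 of them, from 79 members tested, against 3.82% of all genes tested. The 15 were 10 in complex V, 3 in complex IV, 1 in complex III and 1 in complex I. With any library left out the test called 2 or 3 members, and with a variance trend 22.

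ATP synthase had the highest members. The highest of all 80 genes was ATPsynC, which encodes the subunit of the membrane rotor ring, at 667, 709.6 and 683 FPKM in libraries 1, 2 and 3 (FBgn0039830, chromosome 3R, 31216145 to 31219630, minus strand, in dm6 as are all positions given). ATPsynbeta, the catalytic subunit of the head, was second at 493, 518 and 503 FPKM (FBgn0010217, chromosome 4, 1031484 to 1034917, plus strand). The alpha subunit, its partner in the head, is listed under the name blw and is therefore not a member, and stood at 454, 466 and 439.7 FPKM. These genes were above every other nuclear-encoded gene of the complex listed here in each library. Their subunits occur in more than 1 copy per enzyme, and a link of that to the levels was not tested. The mitochondrially encoded mt:ATPase6 was higher, at 1753, 2035 and 1598 FPKM.

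The next 8 ATP synthase genes lay close together, between 179 and 222 FPKM on average. ATPsynO, the oligomycin sensitivity subunit of the stalk, averaged 222 ± 6.09 FPKM, and its neighbours ATPsynF, ATPsynCF6 and ATPsynG averaged 213 ± 7.40 FPKM, 211 ± 2.99 FPKM and 204 ± 6.74 FPKM, with values that overlapped between neighbours in that order. ATPsynB, a stalk subunit, averaged 189 ± 4.56 FPKM and ATPsynD 187 ± 0.283 FPKM. ATPsyngamma, the rotating central shaft, averaged 182 ± 6.28 FPKM, and ATPsynE, a small membrane subunit, 179 ± 8.31 FPKM. The epsilon subunit, listed as sun, averaged 187 ± 5.04 FPKM.

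ATPsyndelta, another part of the central stalk, was the lowest at 36.6, 37.7 and 34.7 FPKM (FBgn0028342, chromosome X, 10212970 to 10217393, plus strand). Its merged exon length is 3817 bases, against a median of 918 for the complex. In recovered reads it had 3718, 3735 and 3313, against 3284, 3508 and 3193 for ATPsynE, whose exons span 720.0 bases. CG2962 on the opposite strand covers 35.6% of the ATPsyndelta exons and averaged 0.0470 FPKM. By limma, 10 of the 11 genes were above 100 FPKM, with adjusted p from 0.000431 for ATPsynC to 0.00704 for ATPsynE.

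In cytochrome c oxidase all 7 standard members were above 100 FPKM in every library, within a range of 2.89-fold. COX7A, a small accessory subunit, led at 326, 349 and 296 FPKM (FBgn0040529, chromosome 3R, 8339944 to 8341043, minus strand). COX6B, which lies on the intermembrane space side, followed at 209, 216 and 202 FPKM, and COX5A at 155, 160.4 and 155 FPKM. COX4, the regulatory subunit that binds ATP in vertebrates, averaged 125 ± 4.46 FPKM, COX5B, which binds zinc, 122 ± 4.56 FPKM, COX8 120.0 ± 5.76 FPKM and COX7C 112 ± 4.73 FPKM. The last 4 genes ran from 112 to 125 FPKM, and the values of each overlapped those of its neighbour in that order. The limma adjusted p against 100 FPKM was 0.00341 for COX7A, 0.00326 for COX6B and 0.00736 for COX5A, and 0.058, 0.0775, 0.135 and 0.385 for COX4, COX5B, COX8 and COX7C. The subunits of other names, cype (COX6C) and levy (COX6A), averaged 179 ± 3.55 FPKM and 178 ± 8.67 FPKM.

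Complex III ranged from 43.5 to 133 FPKM. UQCR-14, the counterpart of a small subunit of the yeast and mammalian complex, was highest at 133, 135 and 132 FPKM (FBgn0030733, chromosome X, 16286288 to 16286988, plus strand), and was the only one of the complex above 100 FPKM by limma (adjusted p 0.019). CG32576 covers all of its exons on the opposite strand and stood at 8.68, 9.71 and 8.40 FPKM. UQCR-C1, a core protein, averaged 119.8 ± 0.572 FPKM (limma adjusted p 0.0582), and the other core protein, UQCR-C2, 64.0 ± 2.06 FPKM. The 3 UQCR-C1 values lay above the 3 UQCR-C2 values. UQCR-11 averaged 81.0 ± 3.901 FPKM and UQCR-Q, which takes part in ubiquinone binding, 63.6 ± 2.33 FPKM. UQCR-6.4 was lowest at 43.2, 44.1 and 43.3 FPKM, with 40.5% of its exons covered by POSH on the opposite strand. The catalytic subunits with other names were at similar levels, with cytochrome c1 (Cyt-c1) at 56.9 ± 0.584 FPKM and the Rieske iron-sulphur protein (RFeSP) at 62.6 ± 0.300 FPKM.

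The 4 genes of complex II, succinate dehydrogenase, which also works in the citric acid cycle, were the most even. SdhB, the iron-sulphur subunit, was at 66.7, 67.8 and 68.2 FPKM, SdhC, a membrane anchor that binds haem, at 66.2, 68.4 and 66.0 FPKM, and SdhA, the flavoprotein that oxidises succinate, at 64.4, 64.2 and 64.1 FPKM. These 3 genes averaged 64.2 to 67.6 FPKM, and the values of SdhC overlapped those of SdhB. SdhD, the other membrane anchor, was lower at 51.2, 48.5 and 50.6 FPKM, below the other 3 genes in every library. The highest of the 4 exceeded the lowest 1.35-fold, against 3.07-fold in complex III, 2.89-fold in complex IV, 9.49-fold among the complex I genes of at least 1 FPKM and 18.9-fold in complex V. In complex V the lower end is ATPsyndelta alone, at 36.3 FPKM, as the next lowest member, ATPsynE, averaged 179 FPKM. In complex I the upper end is ND-MLRQ alone, at 215 FPKM, as the next highest member, ND-49, averaged 116 FPKM. Complex II has the fewest members, and a range widens with their number.

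Complex I has the most members, 34 standard subunits, of which 32 exceeded 20 FPKM throughout. ND-MLRQ, whose mammalian counterpart has been reassigned to complex IV, was highest at 207, 229 and 209 FPKM (FBgn0052230, chromosome 3L, 23339326 to 23345936, plus strand), and was the only one above 100 FPKM by limma (adjusted p 0.00471). ND-49, a core subunit next to the ubiquinone site, stood at 115.2, 120.2 and 112 FPKM (FBgn0039909, chromosome 4, 568296 to 571554, minus strand), and ND-ACP, the mitochondrial acyl carrier protein, at 113, 117 and 115.2 FPKM. The last 2 genes overlapped each other and were also above 100 FPKM in every library, with limma adjusted p of 0.166 and 0.135.

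The 7 nuclear-encoded core subunits, which carry the flavin and the iron-sulphur clusters or shape the quinone site, stood somewhat higher than the accessory subunits in median, though the highest gene was accessory. ND-20 averaged 74.3 ± 2.67 FPKM, ND-30 66.0 ± 3.43 FPKM and ND-51, which binds NADH, 64.5 ± 1.77 FPKM. ND-23 averaged 56.9 ± 2.75 FPKM, ND-24 50.03 ± 0.588 FPKM and ND-75, the largest subunit, 47.1 ± 1.61 FPKM. The median of the core genes was 63.5, 66.5 and 62.3 FPKM in libraries 1, 2 and 3, and that of the 25 detected accessory genes 52.9, 55.0 and 51.6 FPKM. The log2 ratio was 0.27 ± 0.0047, or 0.32 ± 0.06 with the 2 undetected accessory genes counted, positive in 3 of 3 libraries, while single accessory genes lay on both sides of the core genes.

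Below ND-MLRQ, ND-49 and ND-ACP came 25 genes, core subunits included, from ND-PDSW at 81.3 ± 1.24 FPKM and ND-SGDH at 80.5 ± 3.36 FPKM to ND-AGGG at 42.8 ± 3.52 FPKM and ND-B17 at 41.9 ± 1.11 FPKM. The last 4 detected genes lay lower, apart from that group. ND-B18 stood at 27.5, 27.0 and 25.9 FPKM, ND-13A at 27.1, 26.2 and 26.8 FPKM, ND-ASHI at 23.5, 23.0 and 22.1 FPKM and ND-B14.5A at 20.2, 22.4 and 25.3 FPKM, and none of their values reached those of ND-B17 (43.2, 41.3 and 41.2 FPKM). 

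**Figure D2:**
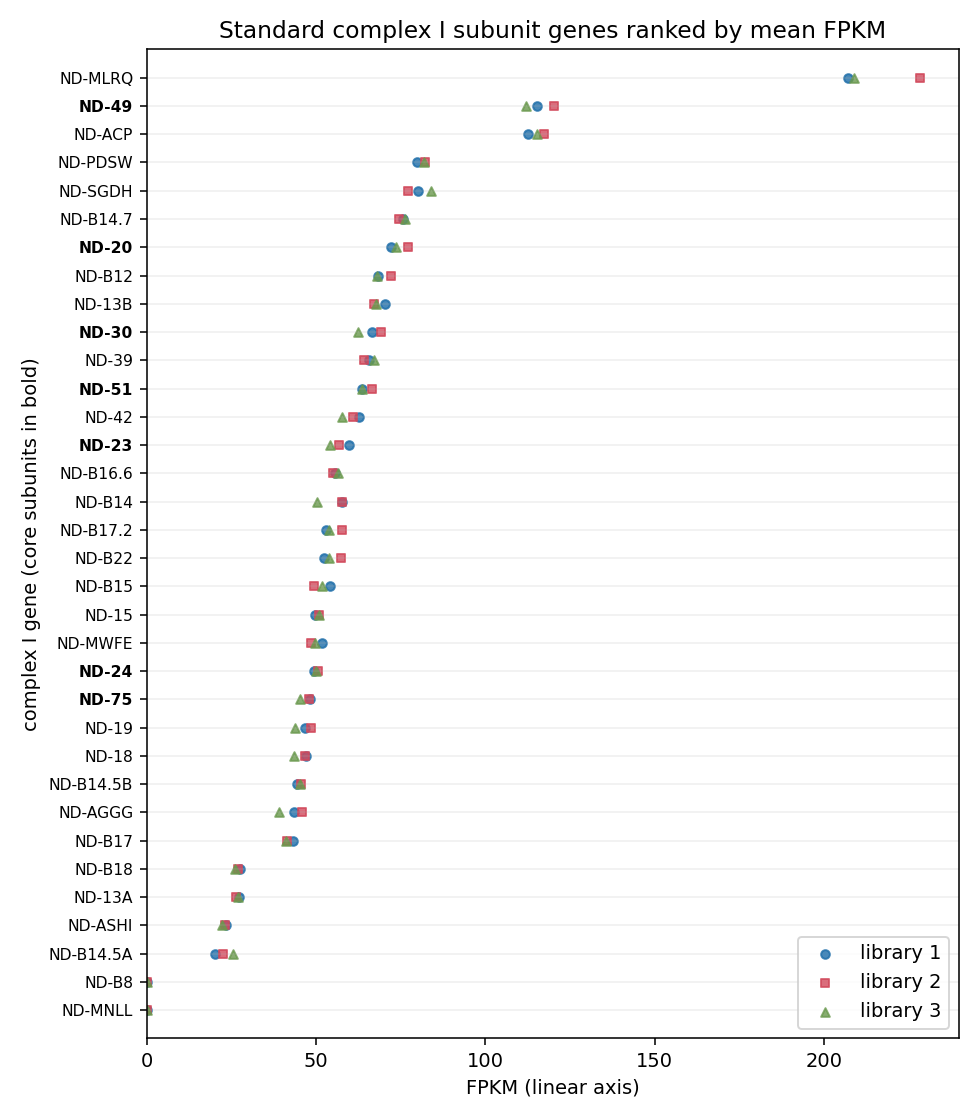
FPKM (linear axis) of the 34 standard complex I genes in libraries 1, 2 and 3, ranked by their mean, with the 7 core subunits in bold. ND-MLRQ stands apart at the top, most genes lie between 41.9 and 81.3 FPKM, and ND-B8 and ND-MNLL lie at or near 0.

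The 2 standard subunits that were not detected were ND-B8 and ND-MNLL, both accessory subunits of complex I with no paralog in the table. ND-MNLL (FBgn0029971, chromosome X, 7893053 to 7893798, minus strand) is listed at 0 in every library. Its exons coincide base for base with those of CG45089 on the same strand, and CG45089 is also listed at 0. Over the whole table, 0 of 331 protein-coding genes whose exons are wholly covered by other genes on the same strand had a read, which allows a share of up to 0.906%. Among those wholly covered on the opposite strand only, 55 of 70 (78.6%) had a read, and among genes without any overlap 8074 of 9350 (86.4%). The 0 of ND-MNLL is therefore not read as a level. UQCR-14 and the paralog COX5BL belong to the class covered on the opposite strand only.

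ND-B8 (FBgn0040705, chromosome 2L, 4454626 to 4455207, plus strand) had 1 read, in library 1, and is listed at 0.0816, 0 and 0 FPKM in libraries 1, 2 and 3. The exact Poisson interval of that read corresponds to a mean of 0.000689 to 0.152 FPKM (95%, counting error only), against 22.6 FPKM for ND-B14.5A, the lowest detected standard subunit of complex I. No gene of the same strand overlaps its exons, and Gs1l on the opposite strand covers 15.4% of them and stood at 14.04, 15.7 and 15.5 FPKM. The authors' annotation and their handling of multiply matching reads are not given, and the part of these in the ND-B8 value was not tested.

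The paralogs were far below their standard subunits in every pair and library. In 18 of 18 pairs the paralog was lower in 3 of 3 libraries, with log2(FPKM + 0.1) ratios of paralog over standard subunit from -11.39 to -5.81 and a median of -8.76. By sign flips over the libraries, the exact permutation p of each pair was 0.25, also after adjustment over the 18 pairs, the smallest possible here. The pseudocount of 0.1 limits these ratios, since 17 paralogs averaged below 1 FPKM. On the plain scale the paralogs reached a median of 0.148% of the level of their standard subunit, and 17 of 18 stayed under 1%. They had 3 to 126 reads each over the 3 libraries, and 8 had fewer than 10. In library 2, 3 paralogs had no read, and 2 had none in library 3. The 3 reads that a count of 0 allows correspond to 0.0738 to 0.214 FPKM in those libraries.

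**Figure D3:**
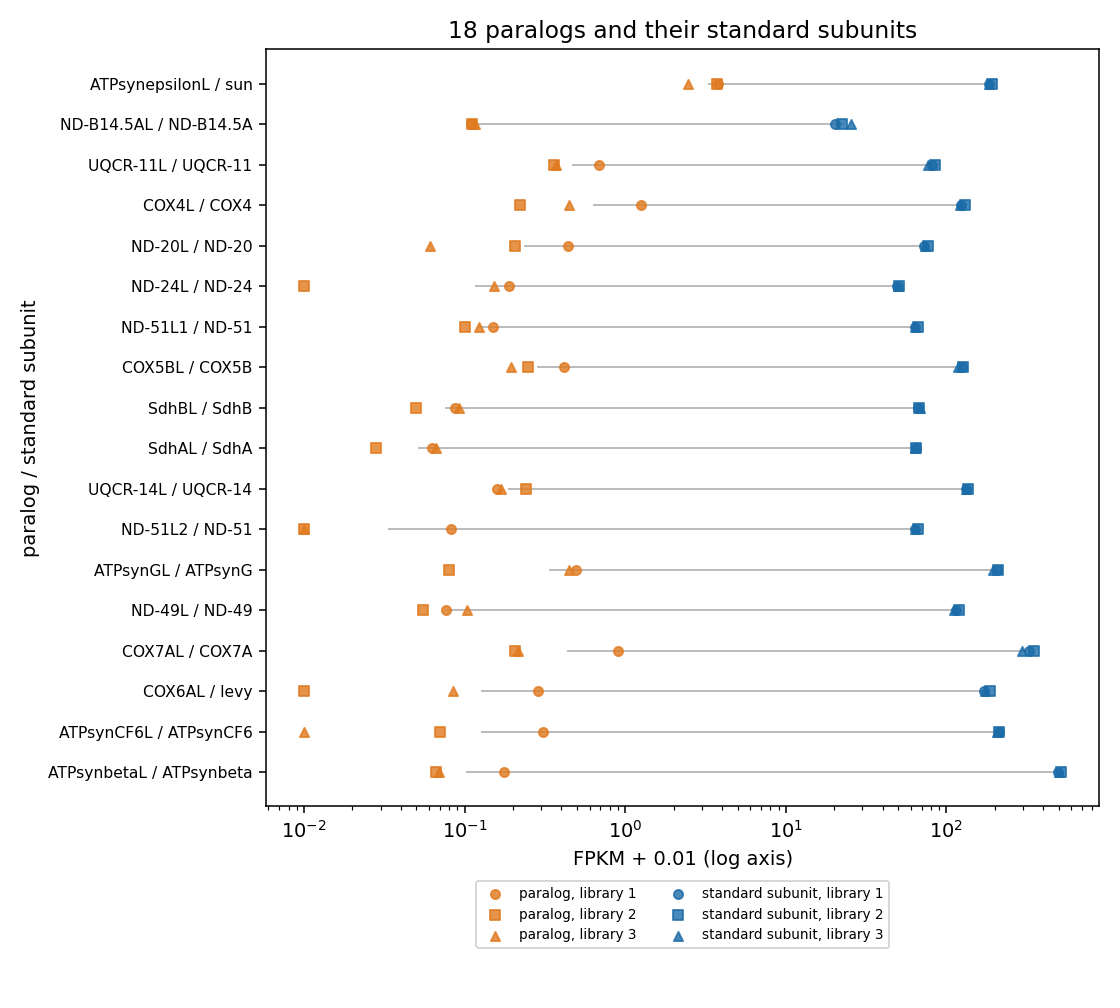
FPKM + 0.01 (log axis) of each paralog (orange) and its standard subunit (blue) in the 3 libraries, with a line joining their means. Pairs run from the least negative log2 ratio at the top to the most negative at the bottom. Every orange point lies left of the blue points of its pair, and ATPsynepsilonL at the top is the highest paralog.

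ATPsynepsilonL, a second gene for the epsilon subunit of ATP synthase, was the exception among the paralogs (FBgn0051477, chromosome 3R, 10121773 to 10122320, plus strand). It stood at 3.75, 3.69 and 2.45 FPKM in libraries 1, 2 and 3 from 49, 47 and 30 reads, and sun, the standard gene, at 185, 193 and 184 FPKM. This is 1.76% of the level of sun (95% Poisson interval 1.47% to 2.10%, counting error only), with a log2 ratio of -5.81 ± 0.32. It was the only paralog that the limma test placed above 1 FPKM (adjusted p 0.00227). No other gene overlaps its exons. Its values in libraries 1 and 2 were alike, and library 3 was the lowest.

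Among the complex IV paralogs, COX4L was at 1.23, 0.211 and 0.438 FPKM from 24, 4 and 8 reads, against 123, 130.0 and 122 FPKM for COX4 (log2 ratio -7.69 ± 1.10). COX7AL, which lies 2625 bases from COX7A on chromosome 3R, was at 0.895, 0.197 and 0.204 FPKM from 14, 3 and 3 reads, and the log2 ratio to COX7A was -9.49 ± 0.996. Both were highest in library 1 by a wide margin. COX5BL lies 122 bases downstream of COX5B on the same strand of 2L, yet was at 0.406, 0.238 and 0.185 FPKM, or 0.226% of COX5B. Trmt6 (listed as CG9596) covers all of the COX5BL exons on the opposite strand and stood at 20.6, 20.1 and 19.6 FPKM. The part of its reads in the COX5BL values was not tested. In both neighbouring pairs the paralog stayed below 1% of its neighbour. COX6AL was at 0.278, 0 and 0.0740 FPKM, with 0.0660% of the level of levy.

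In complex V, ATPsynGL was at 0.480, 0.0704 and 0.439 FPKM, ATPsynCF6L at 0.296, 0.0607 and 0 FPKM and ATPsynbetaL at 0.166, 0.0568 and 0.0589 FPKM. ATPsynbetaL had the lowest ratio of all pairs, -11.39 ± 0.46 on the log2(FPKM + 0.1) scale, and 0.0186% of the level of ATPsynbeta. In complex III, UQCR-11L was at 0.678, 0.348 and 0.361 FPKM and UQCR-14L at 0.149, 0.230 and 0.159 FPKM. In complex II, SdhBL averaged 0.0662 FPKM and SdhAL 0.0421 FPKM, from 10 and 7 reads in all.

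The 6 complex I paralogs all stayed at or under 0.431 FPKM. ND-20L was at 0.431, 0.197 and 0.0510 FPKM, ND-51L1 at 0.140, 0.0899 and 0.112 FPKM and ND-24L at 0.178, 0 and 0.142 FPKM. ND-B14.5AL had 2 reads in each library and averaged 0.102 FPKM, and ND-49L averaged 0.0685 FPKM from 9 reads. ND-51L2 was the lowest paralog, with 3, 0 and 0 reads and 0.0719, 0 and 0 FPKM. That is 0.0372% of ND-51 (95% Poisson interval 0.00766% to 0.109%, counting error only).

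The gene models of paralogs and standard subunits are described here without a test. Of the 18 paralogs, 9 have a single exon block in the annotation once isoforms are merged, against 2 of the 62 standard subunits (ND-20 and ATPsyngamma), and the median merged exon length was 744 bases against 862. On the X chromosome lay 1 of 18 paralogs (SdhBL) and 12 of 62 standard subunits. Both chromosome 4 members, ND-49 and ATPsynbeta, are standard subunits. Of the 16 pairs with both genes among the members, 3 lie on the same chromosome arm and 2 within 10 kb.

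Most paralogs were highest in library 1, the library with the highest levels of testis transcripts. The 18 paralogs had 165, 86 and 83 reads in libraries 1, 2 and 3, and the exact 95% Poisson intervals, which cover counting error only, were 141 to 192, 68.8 to 106 and 66.1 to 103. Without ATPsynepsilonL the counts were 116, 39 and 53. Of these 17 genes, 12 were highest in library 1, against 39.8% of the protein-coding genes with a mean between 0.01 and 1 FPKM. Of the 10 paralogs with at least 10 reads in all, a cut-off added after the values were seen, 9 were highest in library 1. The reads of library 1 count toward that cut-off, which favours genes high there, so this count adds nothing to the one before.

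The testis list behaved alike across the libraries. Its 18 genes summed to 18.2, 6.11 and 7.60 FPKM in libraries 1, 2 and 3, and 16 of 18 were highest in library 1, the exceptions being twe and ProtA. Mst84Da, a sperm tail protein gene, was at 3.15, 0.538 and 0.223 FPKM and betaTub85D, the testis beta tubulin, at 1.43, 0.105 and 0.630 FPKM. The regulator genes aly and comr, which act in primary spermatocytes, were at 0 in libraries 2 and 3 and at 0.0331 and 0.0377 FPKM in library 1, from 2 reads each, fewer than the 3 that a count of 0 allows. Cyt-c-d, the cytochrome c gene used in the male germline, was at 0.718, 0.230 and 0.239 FPKM, and Cyt-c-p, the general one, at 114, 115.1 and 98.0 FPKM. The germline markers vas, nos and bam summed to 0.493, 0.486 and 0.582 FPKM. The part of testis RNA in the paralog values was not tested.

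**Figure D4:**
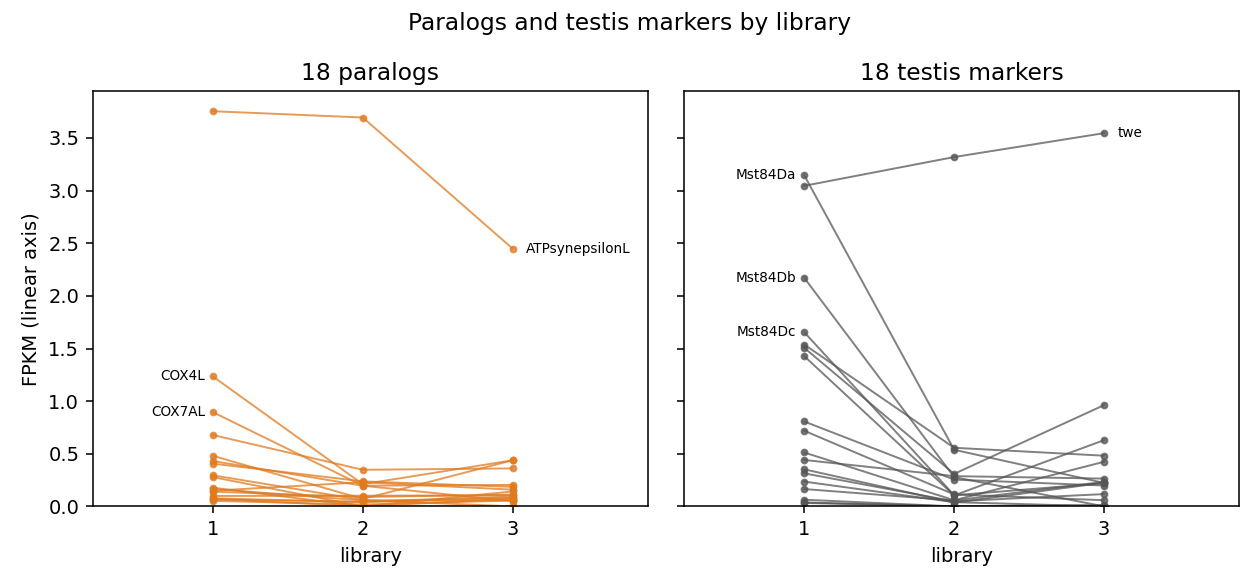
FPKM (linear axis) of the 18 paralogs (left) and of the 18 testis markers (right) in each library, with a line for each gene. COX4L, COX7AL and most testis markers are highest in library 1, while ATPsynepsilonL and twe are not set apart by that library.

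The 61 members of at least 1 FPKM varied little between libraries. The median absolute deviation from the gene's own mean of log2(FPKM + 0.1), averaged over the libraries, was 0.031 ± 0.0092, against 0.044 ± 0.0063 over all 7954 genes of at least 1 FPKM and 0.033 ± 0.0064 over the 3866 genes of at least 20 FPKM. Read against genes of their own level, the members' spread was therefore ordinary. The most variable member was ND-B14.5A, with an SD of 0.16 on the log2 scale, followed by COX7A (0.12), ND-AGGG (0.12), ND-B14 (0.12) and ND-MLRQ (0.079). ND-AGGG was at 43.4, 45.9 and 39.0 FPKM and ND-B14 at 57.7, 57.7 and 50.2 FPKM. All but ND-B14.5A of these 5 genes were highest in library 2, and ND-B14.5A was highest in library 3.

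The small differences that remained depended in part on the scaling between libraries. Of the 61 genes, 37 were highest in library 2, against 33.9% of all genes of at least 1 FPKM and 326 of the 736 genes of at least 100 FPKM, and 35 were lowest in library 3, against 37.8%. By complex, the counts highest in library 2 were 7 of 7 in complex IV, 9 of 11 in complex V, 5 of 6 in complex III, 15 of 32 in complex I and 1 of 4 in complex II. The median deviation in library 2, on the log2 scale, was 0.059 for complex IV, 0.041 for complex V, 0.020 for complex III, 0.015 for complex I and 0.0024 for complex II. In library 3, complex IV was at -0.050, complex V at -0.034, complex III at -0.022 and complex I at -0.020, while complex II was at 0.0049. With all libraries rescaled to the same summed FPKM, 29 of the 61 genes were highest in library 2 and 29 in library 1, and the medians of libraries 1 and 2 were 0.023 and 0.021, so the lead of library 2 over library 1 was lost. The same rescaling put the median of all genes of at least 1 FPKM at 0.021 in library 1 and -0.0098 in library 2, with 1977 of 7954 highest in library 2. Rescaled, 42 of the 61 genes were lowest in library 3, and 6 of 7 in complex IV and 7 of 11 in complex V were highest in library 2. With 1 library behind each value, these shifts have no test.

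The mitochondrially encoded subunit transcripts shifted further, with medians of 0.19 in library 2 and -0.28 in library 3, and 10 of 13 highest in library 2. The 6 larval muscle markers were all highest in library 2 and summed to 48.9, 75.3 and 61.1 FPKM in libraries 1, 2 and 3. The 5 gut markers summed to 6.72, 868 and 384 FPKM, with 4 of 5 highest in library 2, and the 4 fat body markers to 462, 733 and 2234 FPKM, with 3 of 4 highest in library 3. No defining gene of these lists was at 0 in a library. The part of these tissues in the subunit values was not tested.

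**Figure D5:**
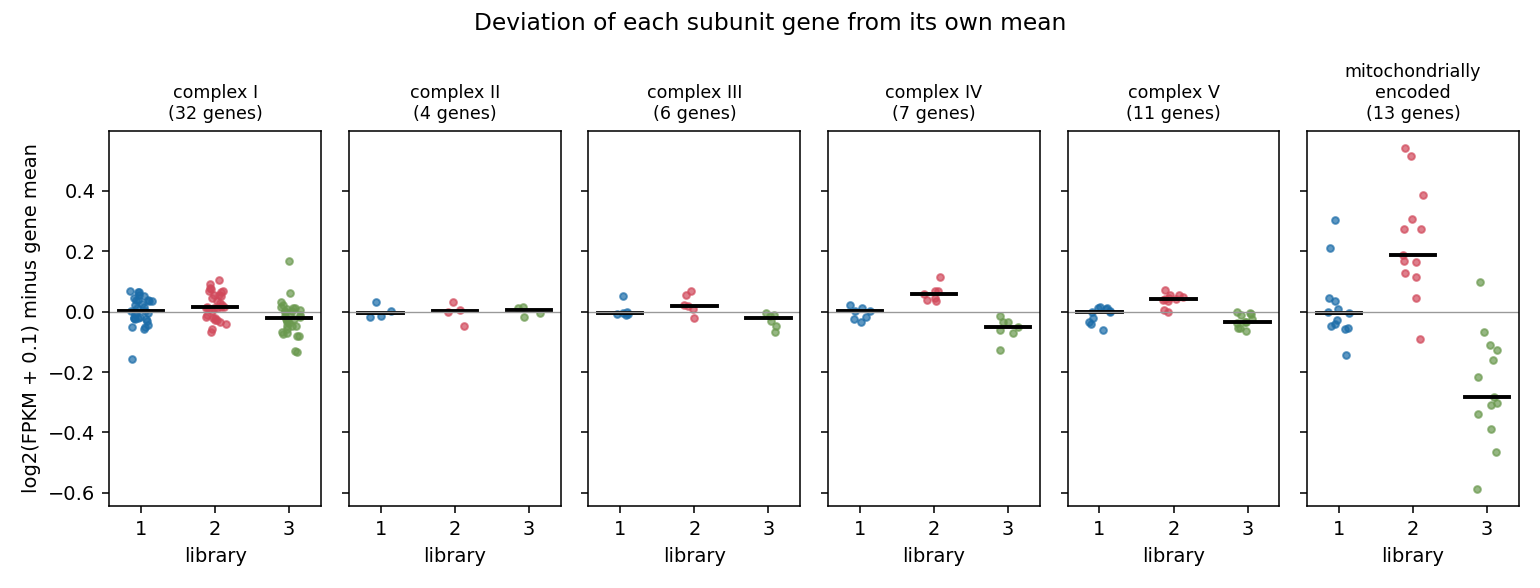
Deviation of log2(FPKM + 0.1) from the gene's own mean in libraries 1, 2 and 3, for the standard subunits of at least 1 FPKM in each complex and for the 13 mitochondrially encoded subunits, with black bars at the medians. In the values as deposited, library 2 is above 0 for all complex IV genes (6 of 7 are highest there after rescaling), and the mitochondrially encoded genes spread most.

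Within complexes built from both genomes, the nuclear-encoded subunits were below the mitochondrially encoded ones in median FPKM. The log2 ratio of nuclear over mitochondrial medians was -4.66 ± 0.10 in complex IV, -4.18 ± 0.25 in complex III, which has mt:Cyt-b as its only mitochondrial gene, -2.14 ± 0.13 in complex V and -1.90 ± 0.53 in complex I. Each was negative in 3 of 3 libraries (exact sign-flip permutation p = 0.25, the smallest possible). The complex V value rests on only 2 mitochondrial genes, mt:ATPase6 at 1753, 2035 and 1598 FPKM and mt:ATPase8 at 10.7, 8.08 and 7.40 FPKM, and turned to 0.73 with geometric means in place of medians. The complex I value was -0.46 with geometric means and 0.072 with geometric means over the 32 detected nuclear genes, so its sign rests on the use of medians. Of the 7 mitochondrial genes of complex I, mt:ND2, mt:ND4L and mt:ND6 averaged 14.99, 2.44 and 1.49 FPKM, below the nuclear median. In libraries 1, 2 and 3, mt:ND4L had 17, 19 and 19 reads and mt:ATPase8 46, 34 and 30. How reads were assigned among mitochondrial genes is not given, and its part in these low values and in the ratios was not tested.

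Most other genes of the pathway were detected as well. All 7 subunits with names outside the rule were above 1 FPKM by limma, and 4 of them were above 100 FPKM. The 11 citric acid cycle genes were all above 1 FPKM, from 31.3 to 118.3 FPKM on average, and none was above 100 FPKM by limma. Scsalpha1, a subunit of succinyl-CoA synthetase, averaged 118.3 ± 1.001 FPKM and Fum1, a fumarase, 113 ± 5.05 FPKM. The 5 assembly factor genes were lower, from 8.29 FPKM for CIA30, which acts on complex I, to 29.9 FPKM for Scox, which delivers copper to complex IV, and all 5 passed the test against 1 FPKM. Of the carriers that move products of the chain, sesB, the ADP/ATP carrier, averaged 714 ± 14.97 FPKM, its neighbour Ant2 3.84 ± 0.542 FPKM, and porin, the outer membrane channel, 320.3 ± 8.99 FPKM.

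Of 10 genes for regulators of mitochondrial gene expression and DNA upkeep, 9 were above 1 FPKM by limma. TFAM, which packages mitochondrial DNA, averaged 72.0 ± 0.468 FPKM and mtSSB, the single-strand binding protein, 73.2 ± 2.95 FPKM. srl, the PGC-1 homologue, averaged 36.0 ± 1.501 FPKM, ewg, related to vertebrate NRF-1, 19.1 ± 0.960 FPKM and Ets97D, related to the GABP alpha subunit, 19.1 ± 0.986 FPKM. The remaining gene, mtTFB1, is listed at 0, and like ND-MNLL its exons are wholly covered on the same strand, by Ccdc56.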

How the data were processed

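RNA of 3 pooled wing disc samples was sequenced with TruSeq libraries read as pairs of 50 nt, per the labels' protocols. The authors deposited 1 table of FPKM values with 1 column per library. Its columns carry the prefix w118, which is in no label, and were matched to samples by number. The submitters' processing notes name CASAVA 1.8, FastQC 0.11.8, STAR 2.7.6a, featureCounts 1.6.0, DESeq2 (no version) and the build dm6. For the annotation, strand setting and multiply matching reads, the sources used here give no detail.

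FPKM times the merged exon length in Ensembl release 115 (dm6 coordinates, 17551 of 17611 genes matched) gave whole reads (tolerance 0.01) for 99.7% to 99.8% of genes above 0, and for all 80 members. These recovered reads gave depth and limits, not the main test. No library copied another: between any pair, reads per gene varied beyond counting error, with a chi-square of 17.6 to 28.0 for each degree of freedom.

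limma 3.58.1 (R 4.3.3) tested mean log2(FPKM + 0.1) against 1 and 100 FPKM, one-sided, over the 13909 genes above 0 in any library, with Benjamini-Hochberg adjustment at 0.05, and was tested on simulated data. Differences on this scale understate changes of low genes. Ratios were taken within libraries, with exact two-sided sign-flip permutation tests. Members, lists and levels were chosen with earlier results of these data known. Of the list symbols, 3 were matched through synonyms (Sirup, CG5028 and mtRNApol in the table). Genes were named by rule: the extremes of each complex, core subunits, all paralogs, undetected members and the 5 most variable. Other members named, the other-named subunits and neighbouring genes, were chosen after their values were seen. Comparisons of promoter and protein sequence are not reported here, as no sequences were used.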

Additional observations from a re-analysis of the deposited data

How the results depend on the processing

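No paired analysis was possible because there is 1 group. The count of 61 members at 1 FPKM was the same at 0.5 and 2 FPKM, with 10 reads in every library, after rescaling and without any library, and the limma count against 1 FPKM was 61 in every setting run. The count against 100 FPKM was 15, with 34 after rescaling values to equal totals, which moves all levels up, and 2 to 3 without a library. The counts with other pseudocounts, filters and a variance trend ran from 15 to 22. Complex medians as geometric means were 38.8, 61.7, 78.2 and 155 FPKM for complexes I to IV. The complex I value takes in the 0 of ND-MNLL and the near-0 ND-B8, and over the 32 detected genes, an alternative added after the data were seen, it was 55.9 FPKM and the median 55.2 FPKM. Other-named subunits moved complex III to 65.1 and IV to 157 FPKM. Rescaled medians were 103, 125, 139, 239 and 388 units for complexes I to V, and medians of reads without division by length 1146, 1848, 2297, 3226 and 4491, in the same order of complexes. Complex III over II reversed to -0.0076 with other-named subunits, and the complex V nuclear to mitochondrial ratio to 0.73 with geometric means (complex I -0.46, and reversed to 0.072 over detected genes), in each case because the subunits averaged changed in weight or number. The members' median deviation in library 1, -0.00066, lay near 0 and became 0.023 after rescaling, 0.0037 over all members and -0.018 to 0.0072 without another library. In library 2, 0.034 became 0.021 after rescaling, no longer above library 1. The absolute deviation, 0.031, ran from 0.019 (without library 2) to 0.035 without a library. The cause of the other changes was not tested. The sign of every paralog ratio was the same under each pseudocount, in reads and without each library. Depth limits the paralogs, of which 8 had fewer than 10 reads, and 3 libraries allow no permutation p below 0.25.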
